A study of Mus musculus with 11 samples.

Results

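Chromatin accessibility was compared between mouse CD8 T cells after 9 days of culture and CD8 T cells after 3 days of activation (effectors), over 111041 genomic regions built from ATAC-seq peaks. ATAC-seq uses a transposase that cuts and tags DNA where chromatin is open. Of the 11 libraries of the series, 9 enter the comparison, 8 from day 9 and 1 from day 3. A region was counted as different by any of 3 rules. It had a peak in all 9 libraries and the effector value lay outside the range of the 8 day 9 values, or it had a peak in all 8 day 9 libraries and none in the effector library, or a peak in the effector library and none at day 9. These rules took 49827 regions, out of 102044 with a peak in at least 1 of the 9 libraries.

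All libraries came from CD8 T cells of mouse spleen, per the labels, and the sorts used a YFP reporter of Tcf7. The day 9 cells had been divided by YFP level at day 3, put back into culture and divided again at day 9. Group high_to_high (2 libraries) was YFP-high at both sorts, low_to_high (3 libraries) was low at day 3 and high at day 9, and low_to_low (3 libraries) was low at both. The effector library came from cells activated outside the animal for 3 days, and no YFP sort is stated for it. Naive splenocytes (CD44-, CD62L+, YFP+) and antigen-experienced ones (CD44+, CD62L+, YFP+), 1 library each, are given beside the results as further reference levels and were used in no rule. The stimulus, the culture medium, the strain and the age of the animals are not given in the sources used here, nor is the origin of replicates, so p-values cover the spread among these samples, which may be technical. The comparison sets cells at day 9 against a day 3 activated control, and with 1 effector library the time in culture, the sorts and that library itself cannot be told apart.

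CD8 T cells leave the naive state when their receptor is engaged. Calcium, MAP kinase and NF-kB signals then raise NFAT, AP-1 and Rel factors, which open many regulatory elements within days, while TCF-1 (the product of Tcf7), LEF1 and other factors of resting cells decline. In cells that later return to rest or become memory cells, part of the resting pattern of open chromatin is regained, and elements of cytotoxic and cytokine genes often stay accessible.

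Promoter stretches are printed as examples, although most of the regions that differ lie away from promoters. Each is the 250 bases before a gene start (RefSeq, build mm10, in the direction of the gene), and capitals mark motifs of AP-1 (TGANTCA), ETS (CGGAAGT), RUNX (TGTGGTT), TCF/LEF (CTTTGAA) or E-box (CACGTG) factors on either strand. Motifs of KLF/SP (GGGCGGG), NRF1 (GCGCATG) and FOX (TGTTTAC) factors were searched too and are in none of the 6. The windows of Fasl, Hk2, Cd200 and Klre1 were picked in the same way and are not printed. That of Cd200 holds a KLF/SP motif. The first 4 belong to the listed genes described further down, and the last 2 are the windows of any gene with the largest difference (Hnrnpf) or the highest effector value (Cgref1) among those with an ETS or an AP-1 motif.
Txk, higher at day 9, chr5:72752778-72753027, minus strand: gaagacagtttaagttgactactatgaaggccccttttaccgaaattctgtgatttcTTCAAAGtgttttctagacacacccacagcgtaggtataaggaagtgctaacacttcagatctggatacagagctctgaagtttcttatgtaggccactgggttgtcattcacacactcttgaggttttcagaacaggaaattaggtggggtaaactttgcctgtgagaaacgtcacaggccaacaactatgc
Batf, higher at day 9, chr12:85686470-85686719, plus strand: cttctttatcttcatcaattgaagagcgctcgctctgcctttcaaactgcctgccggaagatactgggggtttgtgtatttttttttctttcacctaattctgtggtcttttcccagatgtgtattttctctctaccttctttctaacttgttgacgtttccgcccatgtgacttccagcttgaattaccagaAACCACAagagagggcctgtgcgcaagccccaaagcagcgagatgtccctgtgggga
Srgn, peak at day 9 and none in effector, chr10:62507758-62508007, minus strand: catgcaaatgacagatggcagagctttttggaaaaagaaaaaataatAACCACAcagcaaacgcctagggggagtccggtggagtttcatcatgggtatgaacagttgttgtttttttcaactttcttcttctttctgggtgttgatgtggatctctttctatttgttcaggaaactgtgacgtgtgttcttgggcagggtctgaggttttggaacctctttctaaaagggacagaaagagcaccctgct
Havcr2, lower at day 9, chr11:46454681-46454930, plus strand: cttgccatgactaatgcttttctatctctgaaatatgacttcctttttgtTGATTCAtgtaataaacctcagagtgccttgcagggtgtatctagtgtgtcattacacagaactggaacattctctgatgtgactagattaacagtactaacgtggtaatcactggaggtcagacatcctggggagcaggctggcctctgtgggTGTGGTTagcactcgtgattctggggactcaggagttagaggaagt
Hnrnpf, higher at day 9, chr6:117900090-117900339, plus strand: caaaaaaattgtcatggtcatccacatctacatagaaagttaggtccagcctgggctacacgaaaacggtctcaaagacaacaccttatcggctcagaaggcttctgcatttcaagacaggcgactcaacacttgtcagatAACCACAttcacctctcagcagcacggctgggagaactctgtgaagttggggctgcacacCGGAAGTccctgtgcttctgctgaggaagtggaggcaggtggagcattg
Cgref1, peak in effector and none at day 9, chr5:30945428-30945677, minus strand: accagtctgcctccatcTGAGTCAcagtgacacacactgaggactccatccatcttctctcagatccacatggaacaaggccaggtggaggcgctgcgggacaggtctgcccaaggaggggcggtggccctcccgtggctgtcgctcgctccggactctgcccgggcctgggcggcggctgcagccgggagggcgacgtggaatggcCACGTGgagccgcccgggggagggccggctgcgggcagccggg
In Havcr2, the gene of the inhibitory receptor TIM-3, an AP-1 motif began at position -200 from the gene start and a RUNX motif at -46, both inside the measured region. The RUNX motifs of Batf (at -57), Srgn (at -203) and Hnrnpf (at -109), the ETS motif of Hnrnpf (at -49) and the AP-1 motif of Cgref1 (at -233) also lay inside the measured regions. The TCF/LEF motif of Txk (at -193) and the E-box of Cgref1 (at -43) lay outside the regions there. Txk, which encodes a Tec family kinase of T cells, held 55.4, 65.1 and 67.7 (lowest, median and highest normalized tag count of the 8 day 9 libraries) at this promoter, against 13 in the effector library. Hnrnpf, which encodes an RNA-binding splicing factor, held 43.8, 57.5 and 70.5 at day 9 and 20.9 in the effector library. Cgref1 held 32 in the effector library. No motifs shared a base, and a match is a description of the letters, not of binding.

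Values are normalized tag counts, which scale the tags of a peak to a library of 10 M (mega) tags. The day 9 libraries held 20.8 to 59.97 M tags and 46454 to 62581 peaks, and the effector library 53.2 M tags and 66117 peaks. Peaks took up 9.01 to 12.5% of the tags at day 9 and 9.08% in the effector library, a value inside that range. The median peak stood 7.97 to 8.75-fold over its surroundings at day 9 and 6.80-fold in the effector library. The effector library had more peaks than any day 9 library, the weakest enrichment and the lowest share of regions over promoters, at 13.7% against 15.6 to 18.9% at day 9. For each of these 3 measures the two-sided exact permutation p was 0.111, the smallest that 1 library against 8 can give, and their part in the results below was not tested. Marker genes were read beside the labelled cell type. Regions called in any library lay near all 16 T cell identity genes, with a summed normalized tag count of 2129 to 2911 at day 9 and 1760 in the effector library. Regions also lay near 9 of 10 B cell, 10 of 12 myeloid and 9 of 10 natural killer genes. The same held for 11 of 11 CD4 and regulatory T cell genes and 6 of 8 erythroid genes. Presence of a region near a marker therefore cannot tell cell types apart.

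The 2 sides of the comparison shared 25916 regions with a peak in all 9 libraries. Values were put on the scale log2(normalized tag count + 1), which understates changes of low values, and each library was centred on its median over these regions. Day 9 values lay above the effector value in 7797 regions and below it in 6432, which are 30.1% and 24.8% of the shared regions (54.9% in either direction). The other 11687 regions held the effector value inside the day 9 range. The median difference (day 9 mean minus effector, log2) was 0.48 in the higher regions, -0.54 in the lower ones and 0.04 over all shared regions. Differences reached 3.42 upward and -3.19 downward. At least 2-fold differences were seen in 1455 higher regions (5.61% of shared regions) and 1147 lower ones (4.43%). At the edge of the rule, a region near Fzd9 counted as lower by 1.7e-05 on the log2 scale, and a region near Dcaf8 stayed inside the range by 1.65e-05.

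limma was run on the same centred values and the same lone effector library, so its calls are no independent support for the range rule. The fit, with the 3 day 9 groups and the effector library sharing 1 estimate of spread, called 4379 regions higher and 3327 lower at day 9 at a Benjamini-Hochberg adjusted p under 0.05, which are 16.9% and 12.8% of 25916. The lone effector library is assumed there to vary as the day 9 libraries of a group do. Of the higher regions by range, 4362 (55.9%) passed limma's test, as did 3322 (51.6%) of the lower ones and 22 of those inside the range. The split depends on centring. On the deposited scale, where the shared regions of the effector library had a median 0.38 lower (log2) than those of the day 9 libraries, 14756 regions were higher and 2050 lower. All directions below are therefore relative to the median shared region, and a region counted as lower by a small difference need not be lower on the deposited scale. Normalized tag counts printed below are not centred. Over the shared regions with a peak in the library, the median was 27.3 in the naive and 32.2 in the antigen-experienced library. It was 18.3 to 25.9 at day 9 and 15.7 in the effector library. A higher printed count in a splenocyte library than at day 9 therefore need not be a higher centred value.

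**Figure D1:**
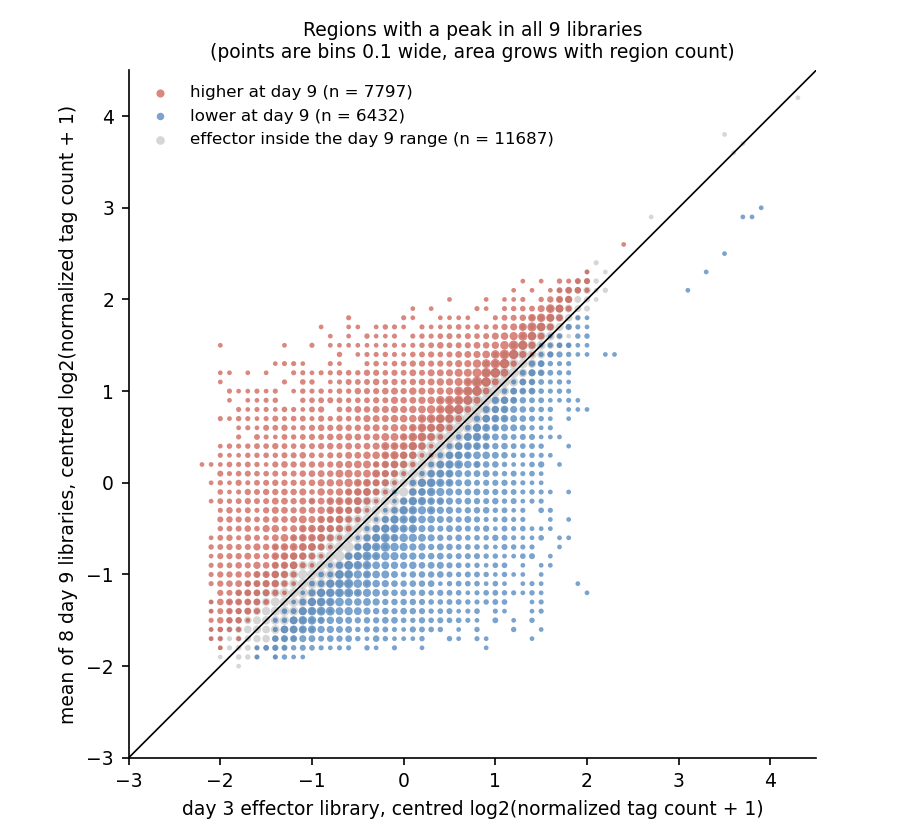
Mean of the 8 day 9 libraries (vertical axis) against the effector library (horizontal axis), both as median-centred log2(normalized tag count + 1), for 25916 regions with a peak in all 9 libraries. Points are bins of 0.1 in both directions with an area that grows with the number of regions, the line marks equal values, and 7797 higher regions (red) and 6432 lower ones (blue) flank the 11687 inside the range (grey).

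The largest gains at shared regions lay near genes of several kinds. The leading region (chr15:65727064-65727378) was 59642 bp from Efr3a, which encodes a plasma membrane scaffold protein. Its normalized tag count was 47.9 at the lowest, 60.3 at the median and 68.3 at the highest of the 8 day 9 libraries, against 3.29 in the effector library. The difference was 3.42 ± 0.15 (log2, SE; limma adjusted p = 1.72e-17), and the naive library held 72.5. All 3 day 9 groups were high, with means (± SD) of 66.4 ± 1.65 for the 3 low_to_low, 54.1 ± 2.71 for the 3 low_to_high and 55.8 ± 11.2 for the 2 high_to_high libraries. These means are not centred, and the low_to_low libraries also had the highest medians over all shared regions. The sixth largest gain lay 39293 bp from Pdcd1, the gene of the inhibitory receptor PD-1 (chr1:94091846-94092061). It held 35.7, 39.3 and 44.4 (lowest, median and highest) at day 9 and 3.38 in the effector library, a difference of 2.85 ± 0.15 (SE; limma adjusted p = 9.49e-16). The naive and antigen-experienced libraries were high there too, at 59.8 and 79.3, so the effector library alone was low.

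The other gains named by size were near Macir (3.15), Uxs1 (3.12), Olfr464 (3.12), Tab2 (2.89), Dnajc27 (2.83), Plcg2 (2.79), Lats2 (2.78) and Ttc7b (2.71). Tab2 encodes an adaptor of NF-kB signalling, Plcg2 a phospholipase of antigen receptor signalling and Lats2 a kinase of the Hippo pathway. All of these 10 regions had a peak in the naive library and in the antigen-experienced one.

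At the largest losses the splenocyte libraries mostly had no peak. The leading region (chr17:72822042-72822344) lay 14284 bp from Ypel5, a gene of the yippee-like family. It held 6.96, 9.01 and 9.80 at day 9 and 67.3 in the effector library, a difference of -3.19 ± 0.21 (SE; limma adjusted p = 9.27e-14), and had no peak in either splenocyte library. A region 14645 bp from Ctla4, which encodes the inhibitory receptor CTLA-4 (chr1:60930477-60930945), held 4.44, 6.82 and 8.36 at day 9 and 38.4 in the effector library. Its difference was -2.79 ± 0.25 (SE; limma adjusted p = 8.83e-11), and neither splenocyte library had a peak there. All 8 day 9 values at both regions were far below the effector value.

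Regions near Vmn1r223 (-3.12), Specc1l (-3.04), Ccl28 (-2.91), Fam3c (-2.90), Slc13a3 (-2.88), Rnf115 (-2.82), Rap1a (-2.79) and Tnrc6a (-2.75) completed the largest losses. Ccl28 encodes a chemokine and Rap1a a small GTPase of integrin control. Of the 10 regions, those near Specc1l, Slc13a3 and Rap1a had a naive peak, at 20.1, 9.99 and 4, each under the effector value of 61.6, 45.4 and 36.9.

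**Figure D2:**
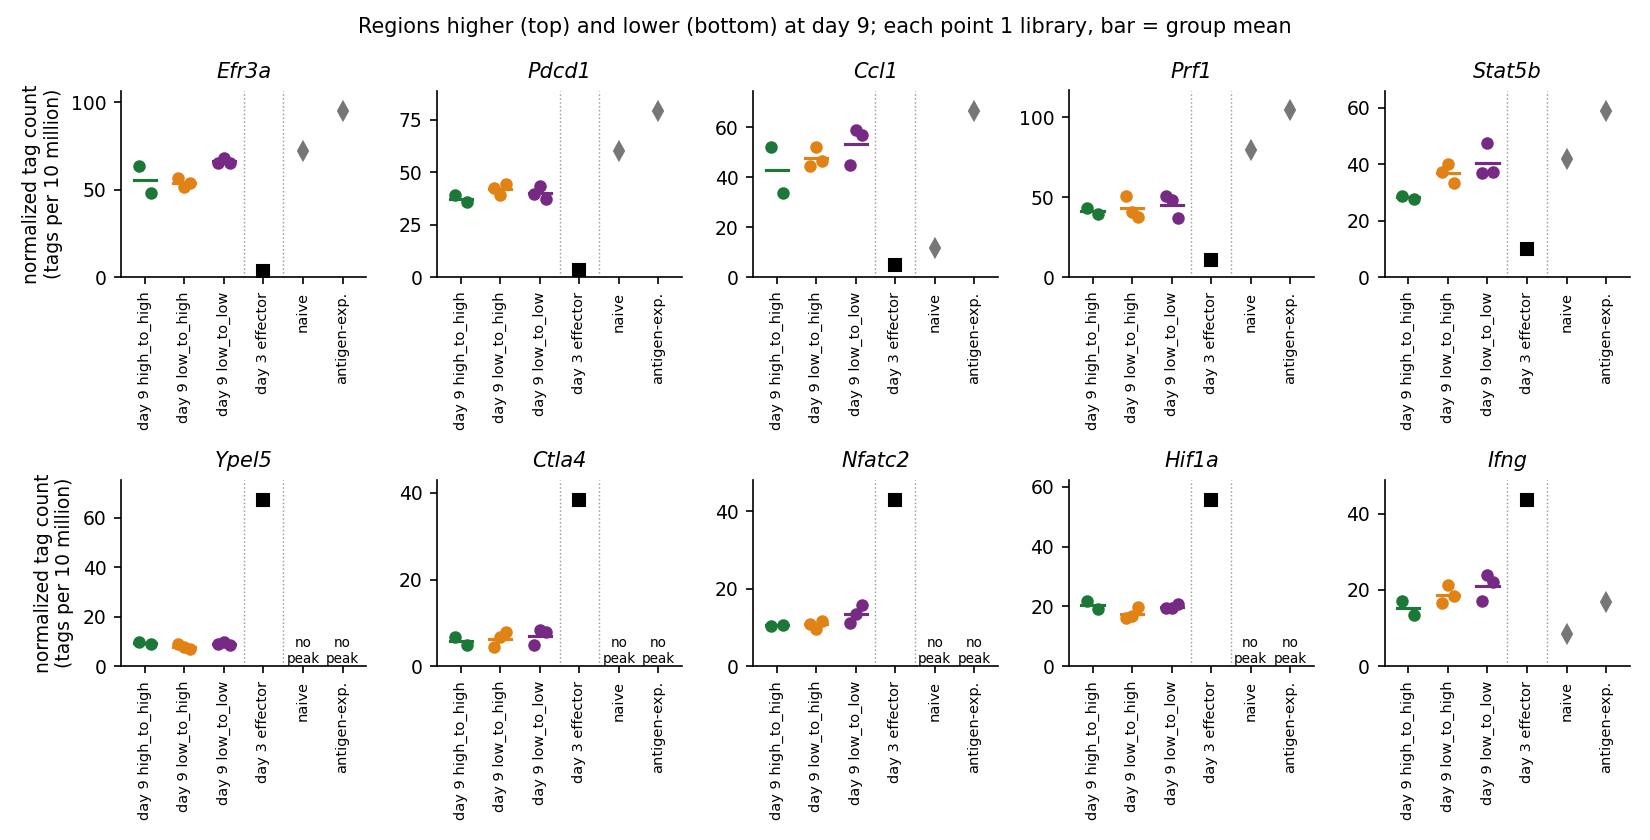
Normalized tag count (tags per 10 M tags, vertical axis) in each library at 10 regions, named by gene, for the 3 day 9 groups (circles, bars are group means), the effector library (square) and the naive and antigen-experienced libraries (diamonds). In the top row every day 9 value is above the effector value (Efr3a, 47.9 to 68.3 against 3.29) and in the bottom row every day 9 value is below it (Ypel5, 6.96 to 9.80 against 67.3).

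A peak in all 8 day 9 libraries and none in the effector library was found at 8467 regions, 24.6% of the 34383 regions with a peak in all 8. The median of their day 9 means was a normalized tag count of 13.6, against 20.9 for the shared regions. A missing peak means that the signal did not pass the caller's threshold, not that the region was closed. The caller's filter on local signal removed 53.3% of putative peaks in the effector library and 36.4 to 49.9% at day 9. The part of this filter in the missing peaks was not tested. The strongest such region (chr14:54227509-54227699) held 74.2, 98.2 and 101.7 at day 9 and 169.6 in the naive library. It lay 7786 bp from Dad1, the nearest gene annotated as protein-coding, which encodes a subunit of the oligosaccharyltransferase. Genes of other annotated types were not considered, so a nearer one would not be named. The nearest effector peak to this region was 4871 bp away. The next were near Dnajc5b (median 80.2), Eif2ak3 (76.5), in Lonp2 (77.9), in Clec11a (78.0), near Smndc1 (71.3), in Rin3 (73.1) and near Mppe1 (73.4). Effector peaks stood 191 bp from the Eif2ak3 region and 122 bp from the Clec11a region, and 14.1% of the 8467 regions (1198) had one within 500 bp. Bach2, which encodes a repressor of effector differentiation, had the most regions of this kind, 13 of its 26 regions with a peak in all 8. Foxp1, a forkhead factor gene of naive cells, Prkcq, the gene of the kinase PKC-theta, Tbl1xr1 and Wwox had 10 each. These genes span 129 kb (Prkcq) to 913 kb (Wwox), and the ranking takes no account of gene length. Regions with an effector peak and none at day 9 numbered 18 at Bach2, 24 at Foxp1, 8 at Prkcq, 12 at Tbl1xr1 and 26 at Wwox.

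A peak in the effector library and none at day 9 was found at 27131 regions, 41.1% of the 66044 effector regions. Most of these were weak. Their median normalized tag count was 7.05, against 9.68 over all effector regions, 8764 of them were at 5 or below, and 824 were above 30. The strongest lay in Cdk6, the gene of a cyclin-dependent kinase (chr5:3494771-3494943), at 59.6 and 5669 bp from the nearest day 9 peak. Those near Gpr176 (58.0), in Fggy (57.5), near Arid5a (57.1), which encodes an RNA-binding regulator of cytokine transcripts, and near S100a10 (56.2) were 1716 to 19708 bp from a day 9 peak. The regions in Bach2 (58.5) and Clec11a (56.4) and near Garre1 (56.8) stood 10 to 37 bp from one, and 8.19% of the 27131 regions (2221) had a day 9 peak within 500 bp. The genes with most such regions were all long, Sox5 with 46 over 954 kb, Lpp with 45 over 599 kb, Inpp4b with 36, Pde4d with 35 over 1302 kb and Rad51b with 34.

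The 5 classes differed in position. Promoter windows, from 250 bases before to 50 after a gene start, lay under 28.4% of the higher regions, 17.0% of the lower ones and 33.5% of those inside the range. These classes are parts of the shared regions, of which 27.8% lay over such windows. Promoter windows lay under 4.92% of the regions with a peak only at day 9 and 1.62% of those with a peak only in the effector library, against 10.3% of all regions. Read the other way, among regions at gene starts the shares were 30.5% higher, 15.2% lower, 5.43% of day 9 regions without an effector peak and 4.86% of effector regions without a day 9 peak. Away from gene starts they were 29.8, 28.7, 30 and 46.6%. Lower regions and regions seen on 1 side alone were therefore less frequent at gene starts than elsewhere. Higher shared regions were about as frequent at both. Each of these classes lay mostly away from promoters.

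The splenocyte libraries were used in no rule, but the classes were chosen for a single effector value outside 8 day 9 values, which favours further libraries falling nearer to day 9. A naive peak was found at 95.2% of the higher, 84.8% of the lower and 95.2% of the inside regions, against 92.6% of all shared regions. It was found at 80.3% of the day 9-only regions, which need a peak in 8 libraries, and at 3.33% of the effector-only regions, which need a peak in 1. These shares are descriptions shaped by that choice. Both splenocyte libraries had a peak at 74.3% of the day 9-only regions (6292), and neither had one at 12.2% (1037). Of the effector-only regions, 95.8% (25997) had no peak in either. Over regions with a peak in all 11 libraries, the median centred log2 value of the 7327 higher regions was 0.59 at day 9, -0.05 in the effector, 0.67 in the naive and 0.64 in the antigen-experienced library. At the 5267 lower regions it was -0.75, -0.03, -0.78 and -0.83, in the same order. The naive and antigen-experienced medians were nearer to the day 9 than to the effector median in both classes, with 1 library each, the same limit from the choice of classes and no test.

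**Figure D3:**
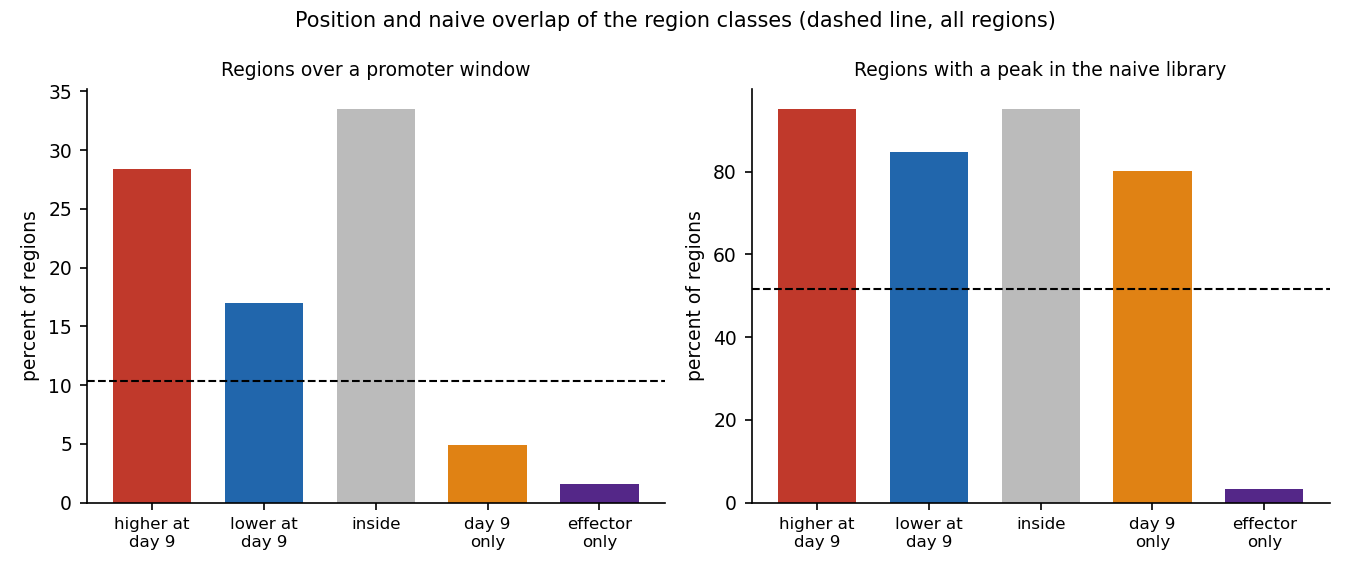
Percent of regions over a promoter window (left) and percent with a peak in the naive library (right), for regions higher at day 9, lower at day 9, with the effector value inside the day 9 range, and with a peak at day 9 only or in effector only. Effector-only regions are lowest in both panels, at 1.62% and 3.33%, and the dashed lines mark all regions, at 10.3% and 51.7%. All shared regions, which hold the higher, lower and inside classes, stand at 27.8% and 92.6%.

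The 3 day 9 groups differed little in their distance from the effector library. The median difference of the higher regions was 0.50 in high_to_high, 0.49 in low_to_high and 0.47 in low_to_low libraries, and that of the lower regions was -0.53, -0.53 and -0.57. Since the rule asks for all 8 libraries on 1 side, these values describe its members and test nothing. Each day 9 library shared 30558 to 36255 regions with the effector library, and the Jaccard index of the pair (shared regions over all regions of the pair) was 0.373 to 0.400.

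Promoter windows under the classes differed in motif content. An AP-1 motif was found in 22.2% of the 445 windows under effector-only regions, in 7.90% of the 1215 under lower regions, in 4.20% of the 2693 under higher regions, in 3.76% of the 4787 under inside regions and in 3.78% of the 450 under day 9-only regions. The share was 7.85% of all 32585 windows, most of which lay under no region (19907 windows, 9.49%). An ETS motif was found in 22.6% of the windows under higher regions, 8.31% under lower, 17.2% under regions inside the range, 7.33% under day 9-only and 1.80% under effector-only regions, against 6.46% of all windows. The RUNX motif was in 8.89% of the windows under day 9-only, 7.19% under effector-only, 5.05% under higher, 3.05% under lower and 3.05% under inside regions, against 5.29% of all. TCF/LEF motifs were in 2.90% of windows under higher regions and 3.13% under lower ones, against 3.45% under inside regions and 5.14% of all. KLF/SP motifs were in 43.3% under higher, 48.8% under lower and 22.5% under effector-only regions, against 51.7% under inside regions and 25.7% of all. The E-box was in 10.9% under higher and 11% under lower regions (12.2% under inside regions, 7.20% of all), the NRF1 motif in 7.65% and 5.93% (10.01% under inside regions, 3.92% of all), and the FOX motif in 2.60% and 1.89% (1.96% under inside regions, 3.67% of all). Median GC content was 60% under higher, 61.7% under lower and 53.7% under effector-only regions, and its part in these shares was not tested.

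**Figure D4:**
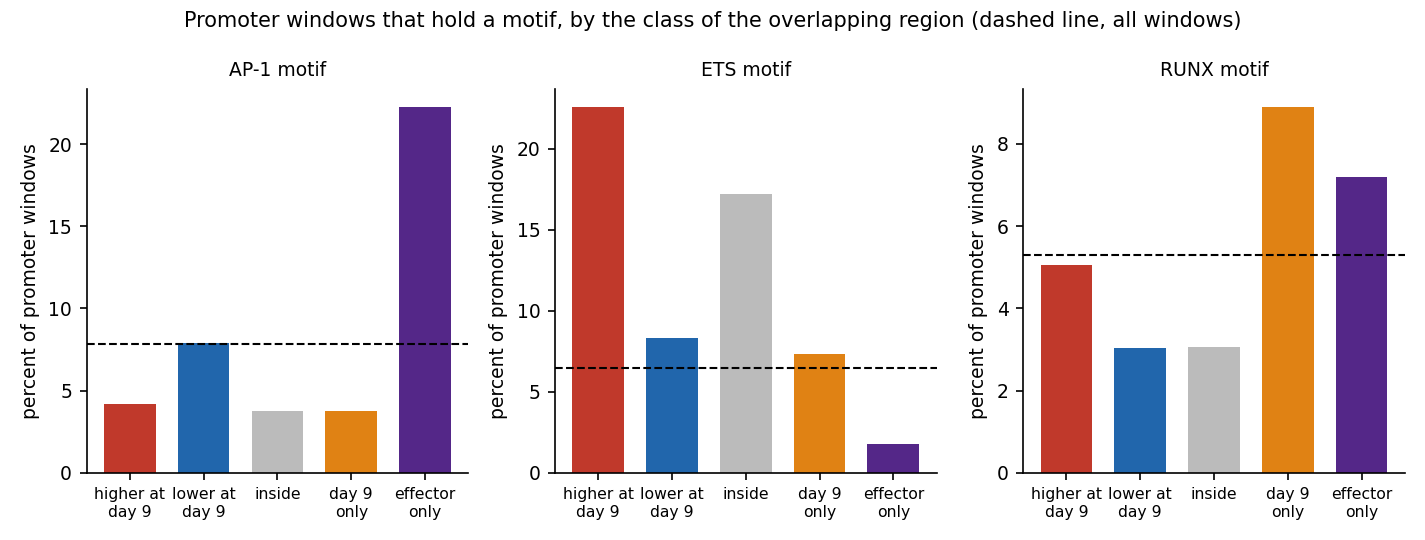
Percent of promoter windows that hold an AP-1, ETS or RUNX motif on either strand (panels), by the class of the region that overlaps the window. The AP-1 share is highest under effector-only regions (22.2%), the ETS share under regions higher at day 9 (22.6%), and the dashed lines mark all 32585 windows.

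Gene lists were read against these backgrounds, with each region given to the nearest gene within 100 kb. Nearness says nothing about which gene a region controls. On the deposited scale each of the 12 T cell lists had more higher than lower shared regions. Beyond the regions named by rule, those given below were picked for the gene's role after their values were seen. Among 24 naive and memory genes, 40 of 104 shared regions were higher (38.5%) and 31 lower (29.8%), and limma called 36 and 19. Of its day 9 regions 71 of 175 lacked an effector peak (40.6%), and of its effector regions 147 of 312 lacked a day 9 peak (47.1%). Away from gene starts these shares were 42.5 and 48.5%, against 30 and 46.6% of all such regions. The day 9-only share was above 24.6% in all of the 12 T cell lists but that of cell cycle genes (23.1%), so it is not particular to any of them, and no difference from the background was tested. The largest gain lay in Ripor2, a regulator of RhoA activity. It held 50.6, 72.2 and 78.0 at day 9 and 11 in the effector library (2.14 ± 0.15, SE; limma adjusted p = 2.99e-13).

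Tcf7 itself had 6 regions that differed, and the gains were the strong ones. A region inside the gene (chr11:52265656-52265891) held 49.8, 61.5 and 76.2 at day 9, and a region 30747 bp away (chr11:52314130-52314543) held 41.7, 54.5 and 62.2, with no effector peak at either. The naive library held 103.8 and 108.6 there, not centred, with a median of 27.3 over the shared regions where it had a peak. Shared regions 16348 and 35144 bp away were higher, with medians of 72.2 and 38.4 at day 9 against 36.2 and 15.9 in the effector library (0.52 ± 0.14 and 0.88 ± 0.14, SE; limma adjusted p = 0.00403 and 5.33e-06). Effector peaks of 31.7 and 17.0 inside the gene had no day 9 peak. These gains were present in cells sorted as YFP-low at both times. At the first region the mean (± SD) of the 3 low_to_low libraries was 67.8 ± 7.51, that of the 3 low_to_high libraries 55.6 ± 5.22 and that of the 2 high_to_high libraries 57.4 ± 10.7. These values are not centred. The median over all shared regions was also highest in low_to_low libraries, at 21.5 to 25.9. It was 19.4 to 21.3 in low_to_high and 18.3 and 18.4 in high_to_high libraries, so the means do not rank the groups at Tcf7.

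Lef1, the gene of the partner factor of TCF-1, had 5 shared regions higher, 0 lower, 4 day 9-only regions and 5 effector-only ones, the strongest of these inside the gene at 41.7. Its strongest day 9-only region (chr3:131157523-131157726) held 46.8, 62.4 and 75.6 at day 9 and 105.9 in the naive library. A region 52685 bp from the gene held 24.2, 30.2 and 41.6 at day 9 and 4.70 in the effector library (2.07 ± 0.16, SE; limma adjusted p = 7.22e-12). Ccr7, the lymph node homing receptor gene, had 6 day 9-only regions, 2 effector-only ones and a higher region 61 bp from the gene (41.4, 49.5 and 57.5 at day 9, 24.9 in the effector library; 0.55 ± 0.15, limma adjusted p = 0.00529). Satb1, a chromatin organizer gene, had 7 day 9-only and 7 effector-only regions. S1pr1, the gene of the receptor for exit from lymph nodes, had 6 higher and 2 lower shared regions, 2 day 9-only regions and 12 effector-only ones.

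Other genes of resting cells moved in both directions. Myb, a factor gene of stem-like cells, had 3 lower and 0 higher shared regions, led by a region 43698 bp away with 6, 9.00 and 11.2 at day 9 and 33.4 in the effector library (-2.22 ± 0.21, SE; limma adjusted p = 3.63e-10). Myb also had 3 day 9-only and 7 effector-only regions. Foxp1 had 2 higher and 9 lower shared regions beside its 10 day 9-only and 24 effector-only regions. Bach2 had 5 higher, 4 lower, 13 day 9-only and 18 effector-only regions, and its strongest effector-only region stood 37 bp from a day 9 peak. Il7r, the gene of the interleukin-7 receptor, had 1 lower region inside the gene, with 19.6, 24.2 and 25.9 at day 9 and 29.8 in the effector library (-0.70 ± 0.17, SE; limma adjusted p = 0.00138).

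Of 30 shared regions of 16 cytotoxicity genes, 13 were higher and 7 lower, with 7 and 4 called by limma. The higher and lower shares were 43.3 and 23.3%, against 30.1 and 24.8% of all shared regions, with no test of the difference. Regions lay near 14 of the 16 genes. Prf1, the gene of perforin, had 2 higher regions, 0 lower ones and 1 effector-only region. The one 1514 bp from the gene held 36.7, 41.8 and 50.7 at day 9 and 10.7 in the effector library (1.53 ± 0.16, SE; limma adjusted p = 3.98e-09), and 79.2 in the naive library. Fasl, the gene of the death ligand, had 5 higher and 2 lower regions, among them its promoter with 31.3, 37.9 and 53.5 at day 9 and 12.1 in the effector library (1.23; limma adjusted p = 1.29e-08). A region 86942 bp from Fasl was lower (-1.48 ± 0.22, SE; limma adjusted p = 2.78e-06). The granule proteoglycan gene Srgn, whose promoter is printed above, and Nkg7, a granule protein gene, had day 9-only regions at medians of 48.7 and 58.3. Gzmb, the granzyme B gene, had 2 higher, 3 day 9-only and 4 effector-only regions.

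The effector transcription factor list leaned the other way, with 15 of 52 shared regions higher (28.8%) and 22 lower (42.3%), or 23 and 11 without centring, and limma called 10 and 18. Hif1a, the gene of the hypoxia factor, had 3 lower regions and 0 higher, led by a region 12965 bp away with 16.0, 19.6 and 21.7 at day 9 and 55.6 in the effector library (-1.87 ± 0.18, SE; limma adjusted p = 2.58e-10). Neither splenocyte library had a peak there. Hif1a also had 2 day 9-only and 3 effector-only regions, and Irf8 had 3 and 2 of these. Irf8, an interferon regulatory factor gene, had 3 lower regions and 0 higher, of which limma called 1 (-0.50 ± 0.18, SE; adjusted p = 0.0306). Eomes, a T-box factor gene of memory cells, had 2 higher regions, 1 lower, 3 day 9-only and 2 effector-only, the largest gain 81404 bp away with 27.1, 34.6 and 40.7 at day 9 and 8.27 in the effector library (1.5 ± 0.15, SE; limma adjusted p = 1.62e-09). Tbx21, the gene of T-bet, had 1 higher region that limma did not call (0.25, adjusted p = 0.328). Relative to all shared regions the median of the list was -0.16 with genes taken within 100 kb and 0.05 within 20 kb.

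Cytokine and chemokine genes had 11 of 41 shared regions higher (26.8%) and 18 lower (43.9%), or 16 and 5 without centring, with 7 and 10 by limma. Ifng, the interferon-gamma gene, had 6 lower regions and 0 higher ones. Its leading region, 33738 bp away (chr10:118406913-118407308), held 13.4, 17.9 and 24.0 at day 9 and 43.6 in the effector library (-1.57 ± 0.18, SE; limma adjusted p = 1.34e-08). Ifng also had 7 day 9-only and 10 effector-only regions. Before centring, most of its 6 lower regions held an effector count inside the day 9 range. A lower region inside the gene held 24 to 39.6 at day 9 and 36.2 in the effector library. Il10 had 2 lower regions and an effector-only region at 40.2, 23234 bp away. The largest gain of the list lay 34653 bp from Ccl1, a chemokine gene, at 33.7, 49.2 and 58.7 at day 9 and 4.89 in the effector library (2.68 ± 0.16, SE; limma adjusted p = 1.33e-14). The antigen-experienced library held 66.7 there and the naive one 11.6. Xcl1, another chemokine gene, had 2 higher, 2 lower and 9 effector-only regions.

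The activation factor list (AP-1, NFAT, Rel and EGR genes, Batf, Irf4 and Myc) was near the background in shared regions, with 15 of 49 higher (30.6%) and 16 lower (32.7%), 7 and 11 by limma. Of its day 9 regions 34 of 83 had no effector peak (41.0%), and of its effector regions 68 of 134 had no day 9 peak (50.7%). Away from gene starts these shares were 42.6 and 54.5%, against 30 and 46.6% of all such regions, with no test of the difference. The promoter of Batf, which encodes an AP-1 partner of IRF4, held 32.8, 44.5 and 50.9 at day 9 and 15 in the effector library (1.07 ± 0.14, SE; limma adjusted p = 3.50e-07). A region in Nfatc2, the gene of NFAT1, held 9.75, 11.1 and 15.9 at day 9 and 42.9 in the effector library (-2.17 ± 0.21, SE; limma adjusted p = 4.22e-10). Effector-only regions were most numerous near Nfkb1 (17), the gene of an NF-kB subunit, followed by Myc (8), Nfatc2 (7), Egr2 and Jun (6 each), and Irf4 had 4 day 9-only and 4 effector-only ones.

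Inhibitory receptor, NR4A and TOX genes were split evenly, with 16 of 49 shared regions higher and 16 lower (32.7% each), and 12 and 13 by limma. Havcr2 had 1 lower region, over its promoter, with 6.02, 7.36 and 11 at day 9 and 26.2 in the effector library (-2.01 ± 0.23, SE; limma adjusted p = 1.37e-08). Tigit, an inhibitory receptor gene, had a lower region inside the gene (6.5, 8.76 and 11.8 at day 9, 22.2 in the effector library; -1.62 ± 0.22, limma adjusted p = 3.61e-07). A region 25148 bp away from Tigit was higher, with 37.0, 44.4 and 58.3 at day 9 and 7.14 in the effector library (2.13 ± 0.14, SE; limma adjusted p = 1.32e-13). Tox2 had 3 higher regions, 0 lower and 3 effector-only. Nr4a3, the gene of an orphan nuclear receptor induced by antigen, had a higher region inside the gene (47.1, 57.2 and 63.8 at day 9, 13.6 in the effector library; 1.60, limma adjusted p = 1.87e-11) and a day 9-only region at a median of 55.1. A region 32557 bp from Nr4a3 was lower (19.1, 25.2 and 29.9 at day 9, 46.7 in the effector library; -1.28 ± 0.16, SE), and the gene had 5 effector-only regions. Beside the lower region given above, Ctla4 had a higher one 55302 bp away (20.9, 22.2 and 30.1 at day 9, 9.12 in the effector library; 0.89 ± 0.17, SE). Elements of 1 gene thus went both ways at Tigit, Ctla4 and Nr4a3.

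Cytokine receptor and costimulation genes had 13 of 43 shared regions higher (30.2%) and 21 lower (48.8%), with 8 and 8 by limma. Without centring 17 were higher and 7 lower. Il18rap, an interleukin-18 receptor chain gene, held 16.1, 19.5 and 22.5 at day 9 and 43.5 in the effector library at a region inside the gene (-1.51 ± 0.17, SE; limma adjusted p = 1.08e-08). Il2rb, the gene of the shared interleukin-2 and interleukin-15 receptor chain, had 2 lower regions, the larger with 17.4, 23.0 and 29.7 at day 9 and 42.2 in the effector library (-1.22 ± 0.16, SE; limma adjusted p = 2.36e-07). Il2ra, the gene of CD25, had 5 day 9-only regions and 0 effector-only ones, with 48.2, 56.8 and 69.0 at day 9 at the strongest and 76.1 in the naive library. Il18r1 had 4 day 9-only regions inside the gene, at medians of 36.3 to 48.6, and 2 effector-only ones. A region near Cd28, a costimulatory receptor gene, was higher (1.46 ± 0.19, SE; limma adjusted p = 2.14e-07), and the gene had 3 higher, 2 lower and 9 effector-only regions in all. Cd69, an early activation marker gene, had a day 9-only region at a median of 58.7 and an effector-only region at 39.1, 34175 and 30814 bp from the gene.

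JAK, STAT and SOCS genes had 11 of 29 shared regions higher (37.9%) and 3 lower (10.3%), with 7 and 1 by limma. Stat5b, which carries interleukin-2 family signals, had 2 higher regions, the larger with 27.8, 37.0 and 47.5 at day 9 and 9.87 in the effector library (1.37 ± 0.14, SE; limma adjusted p = 2.82e-09). It also had 2 day 9-only regions, at medians of 44.4 and 26.3, and 3 effector-only ones. Jak1 had 2 higher, 8 day 9-only and 8 effector-only regions. Socs1, a feedback inhibitor gene, had 1 higher region (0.57 ± 0.15, limma adjusted p = 0.00422). The lower regions lay in Stat3 (-0.92 and -0.36) and Cish (-0.22). On the deposited scale the day 9 values of the Cish region (41.5 to 57.8) enclosed the effector value (43), as did those of the smaller Stat3 difference (21.8 to 29.4 against 25).

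Among homing and adhesion genes 14 of 33 shared regions were higher (42.4%) and 9 lower (27.3%), with 9 and 4 by limma. Cxcr4, a chemokine receptor gene of bone marrow homing, held 29.8, 37.4 and 42.5 at day 9 and 7.52 in the effector library 13554 bp from the gene (1.73 ± 0.16, SE; limma adjusted p = 3.04e-10). In all it had 2 higher, 2 lower, 2 day 9-only and 9 effector-only regions. Cxcr3, a receptor gene of inflamed tissue homing, had 1 higher, 3 day 9-only and 1 effector-only region. A region near Cxcr5, a follicle homing receptor gene, was lower (-1.59 ± 0.22, SE; limma adjusted p = 6.99e-07) and one inside the gene higher (1.11 ± 0.17, SE; limma adjusted p = 2.47e-06).

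Nutrient and metabolism genes had 11 of 44 shared regions higher (25%) and 14 lower (31.8%), or 19 and 7 without centring, with 6 and 11 by limma, and few effector-only regions, 13 of 73 (17.8%). Hk2, the gene of hexokinase 2, had 5 lower regions, 0 higher, 1 day 9-only and 4 effector-only, among the lower ones its promoter with 22.7, 29.0 and 41.9 at day 9 and 35.8 in the effector library (-0.63 ± 0.15, SE; limma adjusted p = 0.00102). Odc1, the gene of the first enzyme of polyamine synthesis, had a region up by 1.77 (SE 0.17) and another down by 1.32 (SE 0.24), both called by limma (adjusted p = 2.58e-10 and 5.82e-05). Cell cycle genes had 10 of 40 regions higher and 10 lower, with 4 and 7 by limma. Cdk6 held 5 of those 10 lower regions, 6 day 9-only and 12 effector-only regions. The higher and lower shares of cell cycle genes were 25% each, against 30.1 and 24.8% of all shared regions.

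T cell identity genes had 9 of 32 shared regions higher and 11 lower, with 7 and 9 by limma, and 24 of 56 day 9 regions without an effector peak (42.9%). The higher and lower shares were 28.1 and 34.4%, against 30.1 and 24.8% of all shared regions, and the difference was not tested. Zap70, the gene of a kinase of the T cell receptor, had 2 higher regions, at medians of 49.1 and 37.3 at day 9 and at 21.5 and 19.2 in the effector library. Cd8a had a day 9-only region at 29.0, 39.0 and 49.1. Runx1 went both ways, with 1.61 and -1.64 as its largest differences.

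**Figure D5:**
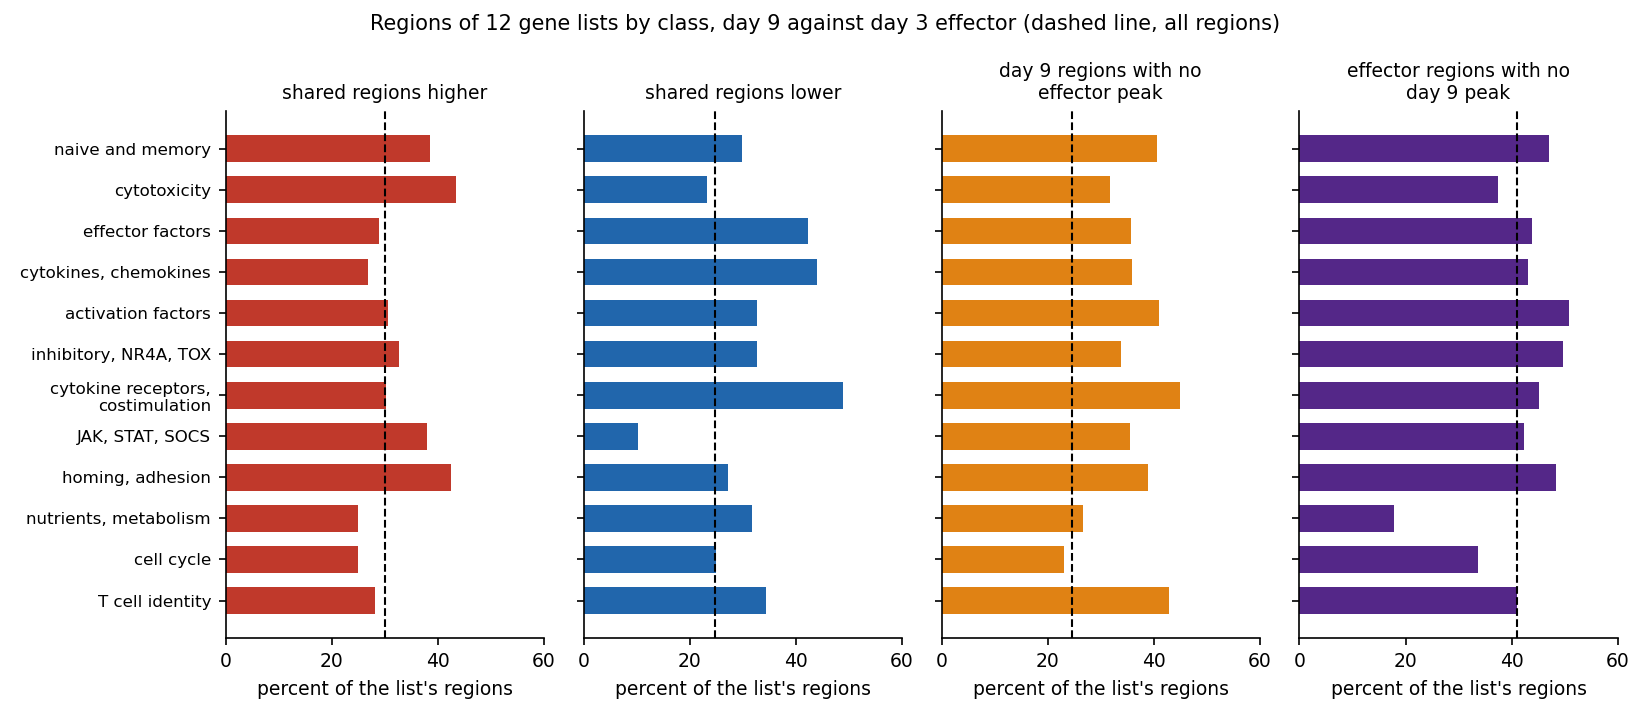
Percent of each gene list's regions that were higher or lower at day 9 (of shared regions), lacked an effector peak (of day 9 regions) or lacked a day 9 peak (of effector regions), for 12 lists of T cell genes, after median-centring. Dashed lines mark all regions, at 30.1, 24.8, 24.6 and 41.1%. Cytokine receptor and costimulation genes stand at 48.8% lower (8 of 43 by limma), and nutrient genes at 17.8% in the last panel.

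Markers of other cell types were read as sums. Summed normalized tag counts over the regions of 10 B cell genes were 252 to 439 at day 9 and 450 in the effector library, which was above that range. Those of myeloid genes were 297 to 431 at day 9 and 307 in the effector library, those of natural killer genes 504 to 698 and 602, and those of CD4 and regulatory T cell genes 406 to 496 and 429. Erythroid genes had sums of 69.0 to 114 at day 9 and 130 in the effector library, again above the range. Cd79a, Csf1r, Cd68, Ncam1, Hbb-bs and Alas2 had no region in any library, and Lyz2, Mpo and S100a8 had none in the effector library or in all 8 day 9 libraries. Of the B cell list, 31 of 48 effector regions had no day 9 peak (64.6%), of which 23 lay near Ebf1, a B cell factor gene, the strongest at 26.2. The part of such cells in the results was not tested.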

How the data were processed

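ATAC-seq libraries were compared as deposited peak lists, 1 per library. The authors called peaks with HOMER 4.10 findPeaks, per the file headers, on each library alone with no control, at an FDR of 0.001, a minimum of 4-fold over the local 10 kb and a local p-value no higher than 1e-04. The deposited signal is a normalized tag count per 10 M tags, and the deposited score, fold ratio and p-value columns are the caller's own, per the file headers. Bowtie2, DESeq2 and build mm10 are named in the submitters' processing notes, and the use of DESeq2 is not given in the sources used here. Peaks of the 11 libraries on chromosomes 1 to 19 and X were merged where they overlapped by at least 1 bp. Values became log2(value + 1), centred per library on the median of regions with a peak in all 9. limma 3.58.1 (R 4.3.3) compared the mean of the 8 day 9 libraries with the effector library over 25916 regions (Benjamini-Hochberg adjusted p under 0.05), and the scripts were tested on simulated data. Single measures used exact permutation. Each region went to the nearest protein-coding gene within 100 kb. Regions named by rule were the 10 largest differences in each direction, the 8 strongest of each presence class, the leading region of each class in each gene list, all Tcf7 regions in a class, and the 5 genes with most regions of each presence class. Members and lists were chosen with earlier results of these data known. Alternatives covered merging, thresholds, centring, pseudocount, left-out libraries, a replicate block and gene distance. Promoter sequences came from RefSeq, and sequences away from promoters were not used here.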

Additional observations from a re-analysis of the deposited data

How the results depend on the processing

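The 14229 shared regions outside the day 9 range numbered 14704 to 15571 when 1 day 9 library was left out, 13960 after quantile normalization (48.4% higher, against 54.8% with median-centring) and 2602 with an added 2-fold minimum. limma's 7706 calls ranged from 7324 to 8447 with 1 day 9 library left out, and were 13316 without centring (11976 higher, 1340 lower) and 6374 with the in-peak tag share as a covariate. With a replicate block limma called 7676. The effector library carries only the number 1, and the labels do not say that a number marks a shared culture, so the samples were not treated as paired. Regions with a peak only at day 9 (8467) ranged from 8530 to 9137 with 1 library left out, and were 25824 for high_to_high replicate 2 alone, the day 9 library with the most peaks. Effector-only regions (27131) ranged from 27228 to 28003 with 1 day 9 library left out and were 9255 at effector values of at least 10. Leaving out a day 9 library loosens the range rule and both peak rules. The 2 peak counts cannot fall then, so their rise is no check of stability. Counting a peak within 500 bp as present gave 7269 day 9-only and 24910 effector-only regions. The minimum of 10 and the 500 bp distance were chosen after seeing the data. Of 53 named shared regions, 52 stayed outside the range on the same side without centring (all but Klre1) and 52 after quantile normalization (all but 1 of the Fcgr1 regions), and none of the alternatives run reversed one. With 1 library left out this was fixed in advance, since a value outside the day 9 range is outside that of any part of it. List medians relative to all regions moved for 6 of 17 lists with genes within 20 kb (cytotoxicity 0.19, effector factors 0.05, cytokines -0.38, cytokine receptors -0.20, homing 0.23, T cell identity -0.03) and for 3 after quantile normalization (naive and memory 0.09, activation factors -0.08, natural killer markers -0.19). The effector library has no replicate, so its own variation could not be measured.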
